A study of Mus musculus with 18 samples.

Results

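The genes described here are the Fc receptors for immunoglobulin G and the proteins that carry or sense antibody in the choroid plexus of lupus-prone and control mice. They were chosen by name, as the rows of the deposited count table for Fcgr1, Fcgr2b, Fcgr3, Fcgr4, Fcer1g, Fcgrt, Pigr and Trim21, and all 8 were found among 50584 genes. The study profiled RNA of the choroid plexus, the secretory epithelium of the ventricles and the source of cerebrospinal fluid, in 18 libraries. MRL/lpr mice, which carry the lpr allele of Fas in all cells and develop a lupus-like disease with autoantibodies, gave 6 libraries at 12 weeks of age and 6 at 16 weeks. MRL/+ mice, the control strain of the same background with the intact gene, gave 3 libraries at each age, and no group received a treatment per the labels. Whether each library is a separate animal is not said in the labels; p-values therefore reflect only the scatter of these libraries, which may be technical.

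Fc receptors bind the constant part of antibodies. Fcgr1, Fcgr3 and Fcgr4 encode activating receptors, which need the signalling chain encoded by Fcer1g to reach the cell surface and to start phagocytosis and cytokine release, while Fcgr2b encodes the inhibitory receptor that restrains them and dampens B cells. Fcgrt encodes the neonatal Fc receptor, which pairs with beta-2-microglobulin and rescues or moves IgG across cell layers, Pigr carries polymeric IgA and IgM across epithelia, and Trim21 is an antibody sensor of the cytosol. Macrophages of the brain borders, choroid plexus macrophages among them, are the usual carriers of the IgG receptors in this tissue.

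The 5 genes of the IgG receptor system (Fcgr1, Fcgr3, Fcgr4, Fcer1g and Fcgr2b) were higher in MRL/lpr than in MRL/+ choroid plexus at both ages, and the activating receptors and the inhibitory receptor rose together. Fcgr4 differed most. Fcgrt, the most abundant of the 8 per length in control tissue, did not pass the test at either age, Trim21 was higher by less than 1 on the log2 scale and missed the threshold, and Pigr was at or near 0 reads in every library.

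The RefSeq promoters of the 8 genes (GRCm38.p6, all 8 matched, 250 bases before to 50 bases after the start) were searched on both strands for 3 motifs. These were the interferon-stimulated response element core GAAANNGAAA, the gamma-activated site TTCNNNGAA, which reads alike on both strands, and the PU.1/ETS core GAGGAA of a factor family active in myeloid cells. Among 32851 promoters of the same length, 3.44% held the first, 8.3% the second and 28.3% the third. Shown are the 250 bases before the start of Fcgr1 (chr3:96293970-96294219, minus strand), of Fcgr4 (chr1:171018676-171018925, plus strand) and, as a gene that did not pass the test and held none of the 3, of Fcgrt (chr7:45103823-45104072, minus strand). For Trim21 the first 30 transcribed bases are given (chr7:102565453-102565482, minus strand). Capitals mark the motifs, and TTCCTC is the PU.1/ETS core read from the other strand.
Fcgr1: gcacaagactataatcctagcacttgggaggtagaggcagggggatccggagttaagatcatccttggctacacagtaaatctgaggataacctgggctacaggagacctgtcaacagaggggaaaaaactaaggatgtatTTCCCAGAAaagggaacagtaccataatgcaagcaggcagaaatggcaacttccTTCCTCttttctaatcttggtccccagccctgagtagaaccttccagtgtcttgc
Fcgr4: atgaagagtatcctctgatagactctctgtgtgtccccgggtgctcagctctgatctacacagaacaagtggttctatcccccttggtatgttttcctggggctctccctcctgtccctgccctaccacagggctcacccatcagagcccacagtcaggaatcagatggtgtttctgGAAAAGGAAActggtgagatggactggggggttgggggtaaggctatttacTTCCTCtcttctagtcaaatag
Fcgrt: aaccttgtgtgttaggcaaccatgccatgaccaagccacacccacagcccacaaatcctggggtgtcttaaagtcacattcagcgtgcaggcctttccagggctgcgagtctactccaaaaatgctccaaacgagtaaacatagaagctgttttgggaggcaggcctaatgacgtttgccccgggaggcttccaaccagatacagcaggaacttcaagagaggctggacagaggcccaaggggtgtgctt
Trim21: ctgcctctgaGAGGAAACTGAAAGTGAAAt
Fcgr1 held a gamma-activated site at bases -109 to -101 from the start and a PU.1/ETS core at -55 to -50. Fcgr4 held the interferon-stimulated core at -73 to -64 and the PU.1/ETS core at -22 to -17. In Trim21, 2 copies of the interferon-stimulated core at 14 to 23 and 20 to 29 after the start overlapped each other and the first of them overlapped a GAGGAA at 11 to 16. Fcgr3 held only the PU.1/ETS core, Pigr only a gamma-activated site after its start at 40 to 48, and the windows of Fcgr2b and Fcer1g held none of the 3. A match describes the letters of the window and is not evidence of binding in these samples.

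Before the results, some libraries stood apart. Total counts were 11164284 to 14602253 per library (levels are given as CPM, counts brought to a common library size by trimmed-mean scaling, TMM). The 15 epithelial markers of the choroid plexus summed to 160103 to 320708 CPM in every library, so the labelled tissue was present throughout. Summed markers of neighbouring tissues were highest in MRL/lpr 12 weeks replicate 1 (pineal gland, 62.8 CPM of total counts against a median of 6.07), MRL/lpr 12 weeks replicate 2 (pituitary, 89.9 against 32), MRL/+ 12 weeks replicate 1 (cerebellum, 413 against 37.4) and MRL/+ 16 weeks replicate 1 (skeletal muscle, 540 against 11.4). MRL/lpr 12 weeks replicate 4 had a pineal sum almost as high, 61.7 CPM of total counts. MRL/lpr 16 weeks replicate 1 ranked second in cerebellum (252) and skeletal muscle (67.4). Both were kept in the fit without the 4 libraries that were highest in a tissue. The strain calls of that fit are given with the counts of calls. In it no member was called with age or in the strain by age interaction, as with all libraries. MRL/lpr 16 weeks replicate 6 was the lowest of its group in 13 antibody genes (452 CPM in sum, where the group's other libraries ran from 2878 to 16392) and in macrophage markers.

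Fcgr1, on chromosome 3 (96282909 to 96293969, minus strand, GRCm38), encodes the high-affinity IgG receptor. In MRL/+ it was at 0.508, 0.94 and 0.314 CPM at 12 weeks and 0.614, 1.17 and 0.798 CPM at 16 weeks, from 4 to 12 reads a library. MRL/lpr libraries ran from 2.44 over a median of 4.11 to 9.34 CPM at 12 weeks and from 3.03 over 9.19 to 15.5 CPM at 16 weeks. No MRL/lpr library overlapped the controls of its age. Fcgr1 was higher by a log2 fold change of 3.04 at 12 weeks (SE 0.59, adjusted p = 0.00576) and 3.35 at 16 weeks (SE 0.59, adjusted p = 0.00254), in edgeR's quasi-likelihood test with Benjamini-Hochberg adjustment over 16598 genes, as for each adjusted p that follows unless another tool is named.

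Fcgr3 encodes a low-affinity activating receptor for IgG complexes and lies on chromosome 1 (171051174 to 171064935, minus strand). Its controls were at 2.54, 1.88 and 3.37 CPM at 12 weeks and at 3.51, 3.41 and 3.35 CPM at 16 weeks. In MRL/lpr the lowest, median and highest libraries were at 9.13, 11.2 and 39.2 CPM at 12 weeks and 7.54, 25.1 and 36.9 CPM at 16 weeks. Even the lowest MRL/lpr library was above every control of either age. The log2 fold change was 2.74 at 12 weeks (SE 0.57, adjusted p = 0.00866) and 2.78 at 16 weeks (SE 0.57, adjusted p = 0.00543).

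Fcgr4 encodes the receptor for the complement-fixing IgG2 subclasses of the mouse and lies beside Fcgr3 (chromosome 1, 171018920 to 171029761, plus strand). Controls were almost without it, with 3, 2 and 4 reads at 12 weeks and 0, 2 and 2 reads at 16 weeks. MRL/lpr libraries held 19 to 115 reads at 12 weeks and 26 to 424 reads at 16 weeks, or 1.25 to 9.59 CPM (median 3.59) and 2.13 to 27.4 CPM (median 5.43). The groups did not overlap, and the spread within MRL/lpr at 16 weeks was the widest of the 7 tested genes, with a highest library 12.8 times the lowest. Since so few control reads were counted, the ratio of summed counts per total is given with its exact 95% interval, which covers counting error only: 20.8 (10.8 to 45.9) at 12 weeks and 82.5 (32.1 to 304) at 16 weeks. At 16 weeks MRL/lpr replicate 1 held 424 of the group's 753 reads, and without it the ratio was 45 (17.4 to 166) and the fitted log2 fold change 5.37 (adjusted p = 0.00315). With all libraries the fitted log2 fold changes were 4.33 (SE 1.01, adjusted p = 0.0158) and 6.13 (SE 1.14, adjusted p = 0.00317). Their difference between the ages was 1.8 (SE 1.55, adjusted p = 0.54), so a larger strain difference at 16 weeks was not shown.

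Fcer1g, the signalling chain shared by these receptors (chromosome 1, 171229572 to 171234365, minus strand), was at 2.61, 1.8 and 2.43 CPM in MRL/+ at 12 weeks and 3.25, 4.39 and 2.55 CPM at 16 weeks. It reached 8.48 to 44.8 CPM (median 13.3) in MRL/lpr at 12 weeks and 8.52 to 57.1 CPM (median 27.1) at 16 weeks. All 12 MRL/lpr libraries were above all 6 controls. Its log2 fold changes, 3.07 (SE 0.66, adjusted p = 0.0101) and 3.03 (SE 0.65, adjusted p = 0.00729), were close to those of Fcgr1 and Fcgr3.

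Fcgr2b, the inhibitory receptor (chromosome 1, 170958617 to 170976547, minus strand), was at 2.35, 2.04 and 2.04 CPM in the controls at 12 weeks and at 5.26, 3.12 and 3.51 CPM at 16 weeks. In MRL/lpr it ran from 9.13 to 53.6 CPM (median 16.6) at 12 weeks and from 9.26 to 47.4 CPM (median 24.6) at 16 weeks. The strains did not overlap, and the 16-week controls were all above the 12-week controls. Its log2 fold change was 3.41 at 12 weeks (SE 0.65, adjusted p = 0.0053) and 2.74 at 16 weeks (SE 0.62, adjusted p = 0.0091). Part of the Fcgr2b and Fcgr3 transcripts is alike: 9.58% of the 50-base windows of Fcgr3 also occur in Fcgr2b, and 2.92% of those of Fcgr2b occur in Fcgr3. How reads with several alignments were counted is not given in the sources used here, so some reads may be lost or shared between this pair.

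**Figure D1:**
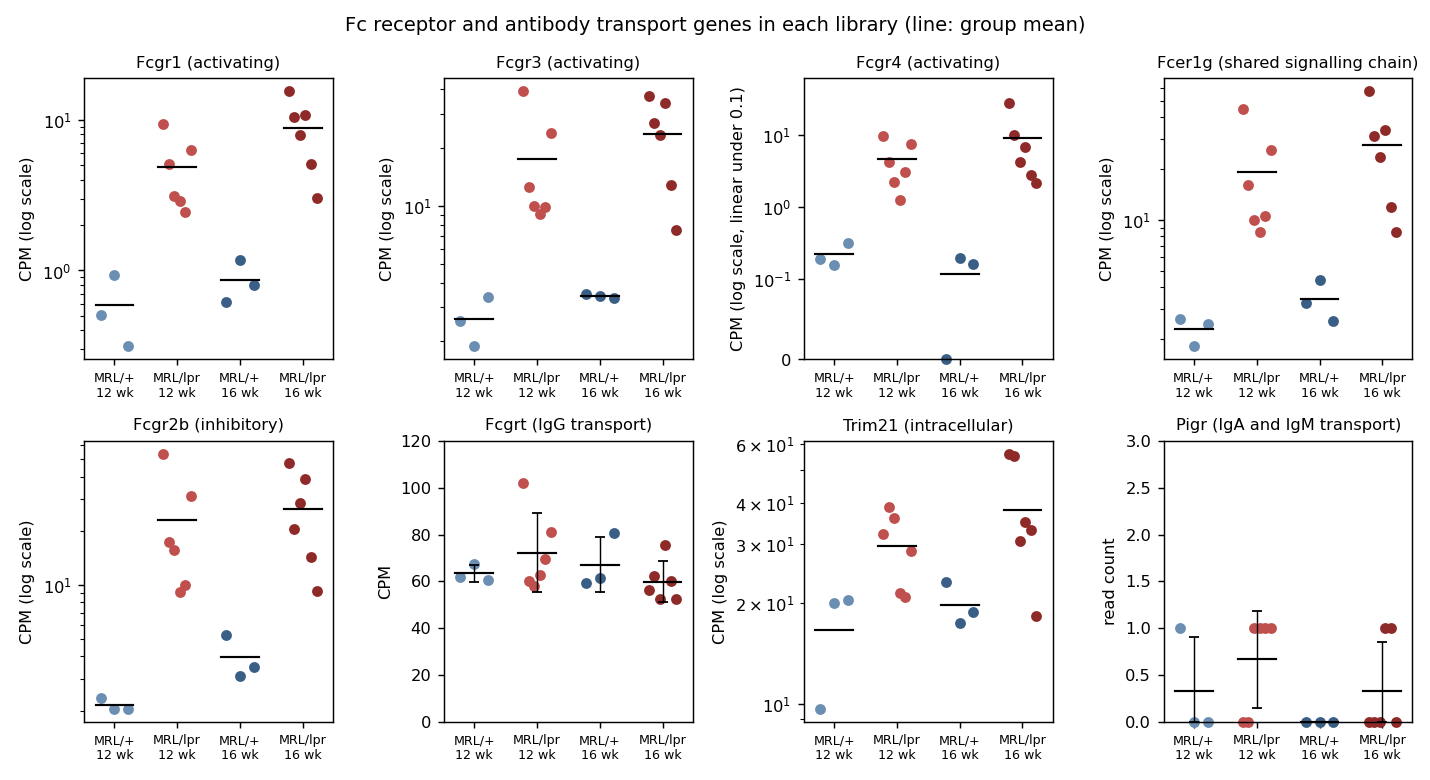
Level of each gene in each of the 18 libraries, as TMM-scaled CPM (log axes for Fcgr1, Fcgr3, Fcgr4, Fcer1g, Fcgr2b and Trim21, linear for Fcgrt) or as reads (Pigr), by strain and age; horizontal lines are group means, and bars on the linear panels are SD. The 5 genes of the IgG receptor system separate the strains at both ages, Fcgrt sits between 52.5 and 102 CPM in all groups, and Pigr never passes 1 read.

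Of the 7 members that passed the filter on low counts, 5 rose at 12 weeks and the same 5 rose at 16 weeks, and none fell. The share of all tested genes called at 12 weeks was 6.36% in either direction and 5.01% for higher in MRL/lpr, and at 16 weeks 11.1% and 8.49%. The libraries of the strains did not overlap in 6 of the 7 at 12 weeks and in 5 at 16 weeks, beside 13.6% and 18.7% of all tested genes. The 7 had a median log2 fold change of 3.04 and 2.78, beside -0.013 and 0.025 over all genes tested. In bulk tissue, more cells of a type and more RNA per cell cannot be told apart, nor can fewer cells and less RNA per cell.

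The 12-week calls rest on few controls. Without MRL/+ 12 weeks replicate 1 only Fcgr2b was called, without replicate 2 only Fcgr1 and Fcgr2b, and without replicate 3 only Fcgr2b and Fcgr3. The remaining adjusted p-values then were 0.0516 to 0.0933. Without the 4 libraries that were each the highest in markers of 1 neighbouring tissue, none of the 7 was called at 12 weeks (log2 fold changes of the 5 from 2.32 to 3.83, adjusted p from 0.118 to 0.213), where only 19 genes of the whole table were. At 16 weeks 4 of the 5 were called without them, Fcer1g missing the threshold (adjusted p = 0.0522). Leaving out MRL/+ 16 weeks replicate 3 left Fcgr1, Fcgr3 and Fcgr4 called (Fcgr2b adjusted p = 0.061, Fcer1g 0.0557), and leaving out MRL/+ 16 weeks replicate 2 removed Fcgr2b alone (0.0557). The direction of these 5 genes was the same in each of these fits.

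**Figure D2:**
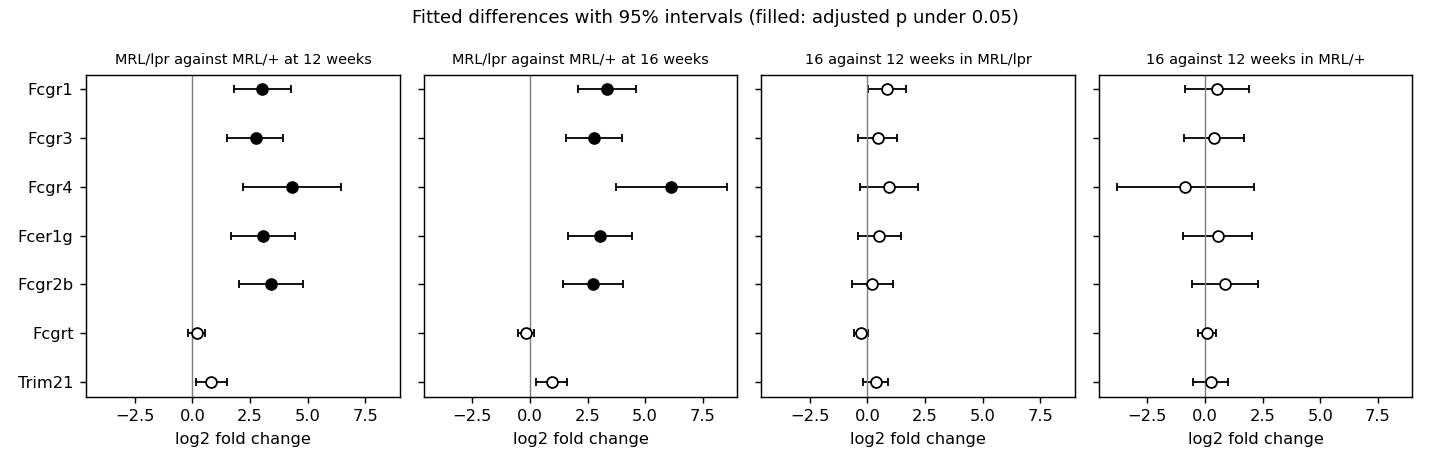
Fitted log2 fold changes of the 7 tested genes with 95% intervals (horizontal bars) for 4 comparisons; filled points passed an adjusted p under 0.05. The 5 genes of the IgG receptor system are filled in both strain comparisons, and no gene is filled in the age comparisons.

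Fcgrt, the IgG transporter (chromosome 7, 45092990 to 45103851, minus strand), was at 61.9, 67.5 and 60.8 CPM in MRL/+ at 12 weeks and at 59.5, 61.4 and 80.8 CPM at 16 weeks. In MRL/lpr the lowest, median and highest libraries were 58, 66.2 and 102 CPM at 12 weeks and 52.5, 58.2 and 75.7 CPM at 16 weeks. Strains overlapped at both ages. The log2 difference was 0.19 at 12 weeks (95% interval -0.17 to 0.55, adjusted p = 0.546) and -0.17 at 16 weeks (-0.52 to 0.19, adjusted p = 0.513), and the sign at 16 weeks turned to 0.32 when libraries were scaled to the epithelial marker list, which moved the median of all genes from 0.025 to 0.508, so that Fcgrt was below that median under both scalings. Its partner B2m, the light chain of the neonatal Fc receptor and of class I molecules, did rise, from 221 to 1151 CPM at 12 weeks (log2 fold change 2.38, adjusted p = 0.00886) and from 275 to 1554 CPM at 16 weeks (2.5, adjusted p = 0.00487).

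Trim21 (chromosome 7, 102557921 to 102565486, minus strand), the cytosolic antibody receptor and a known lupus autoantigen, was at 9.66, 20 and 20.4 CPM in the controls at 12 weeks and at 23.2, 17.4 and 18.8 CPM at 16 weeks. MRL/lpr libraries spanned 20.9 to 38.7 CPM (median 30.4) at 12 weeks and 18.3 to 55.9 CPM (median 34.1) at 16 weeks. The 12-week groups were separate by a small gap, and at 16 weeks MRL/lpr replicate 6 lay among the controls. The log2 fold change was 0.83 at 12 weeks (95% interval 0.15 to 1.52, adjusted p = 0.141) and 0.94 at 16 weeks (0.25 to 1.63, adjusted p = 0.0725). At 16 weeks the call depended on the setting: DESeq2 gave an adjusted p of 0.0296, the fit without MRL/lpr 16 weeks replicate 6 gave 0.0192 and that without MRL/+ 12 weeks replicate 1 gave 0.0486. Over all tools and settings tried the adjusted p ran from 0.00644 to 0.133, and over libraries left out singly from 0.0192 to 0.198.

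Pigr (chromosome 1, 130826684 to 130852249, plus strand) was below what these libraries can measure. It had 1 read in 4 of 6 MRL/lpr libraries at 12 weeks, in 2 of 6 at 16 weeks and in 1 of 3 MRL/+ libraries at 12 weeks, and 0 reads elsewhere. The 12-week ratio of summed counts per total was 2.07 with an exact 95% interval of 0.205 to 102. In MRL/+ at 16 weeks, 0 reads allow a level of up to 0.0774 CPM (3 counts of the group's total), above the mean of 0.028 CPM in MRL/lpr of that age. No difference was detectable at this depth, and Pigr did not enter the test. Jchain, which links the IgA and IgM polymers that Pigr binds, was at 546 CPM in MRL/lpr against 2.12 CPM in MRL/+ at 12 weeks and at 1144 against 2.45 CPM at 16 weeks (adjusted p = 0.00065 and 0.000414).

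Per transcript length (RPKM, CPM divided by the deposited gene length in kilobases), Fcgrt led the MRL/+ libraries at 30.2 ± 1.72 (SD, n = 3) and 32 ± 5.61 RPKM (n = 3), above Trim21 at 4.49 ± 1.64 and 5.33 ± 0.802 RPKM. Fcer1g, Fcgr3, Fcgr2b, Fcgr1 and Fcgr4 followed in that order at both ages, down to 0.175 ± 0.0658 and 0.0941 ± 0.0827 RPKM for Fcgr4. Trim21 and Fcer1g overlapped in both control groups, and at 12 weeks Fcgr2b overlapped Fcgr1 and Fcgr1 overlapped Fcgr4. In MRL/lpr Fcer1g came next to Fcgrt, at 22 ± 16 against 34.4 ± 7.96 RPKM at 12 weeks (SD, n = 6), and at 31.5 ± 20.1 against 28.5 ± 4.12 RPKM at 16 weeks, where it was the higher in 4 of 6 libraries. Neighbours in the order overlapped in MRL/lpr, except Fcgr1 and Pigr at both ages and Fcgrt and Fcgr3 at 16 weeks. The per-length level of Fcgrt was 31.1 to 91.3 times that of Fcgr2b in the 6 controls and 3.28 to 19.3 times in the 12 MRL/lpr libraries.

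The makeup of the 4 Fcgr transcripts also differed in its values. Per length, Fcgr3 made 65.1% ± 8.31 (SD, n = 3) and 64% ± 0.903 (n = 3) of their sum in MRL/+ at 12 and 16 weeks, and 51.8% ± 4.09 (n = 6) and 49.7% ± 6.53 (n = 6) in MRL/lpr. Fcgr4 made 7.57% ± 1.57 and 3.09% ± 2.7 in MRL/+ and 18.2% ± 4.45 and 21.1% ± 9.37 in MRL/lpr. Its share did not overlap between strains at either age, with a highest control of 9.37% and a lowest MRL/lpr library of 11.1%. The share of Fcgr3 overlapped at 12 weeks but not at 16 weeks (63.2% to 65% in MRL/+, 37.1% to 54.8% in MRL/lpr). Fcgr1 made 10.8% ± 7.36 and 10.8% ± 3.54 in MRL/+ and 10.3% ± 1.92 and 12.5% ± 1.29 in MRL/lpr. Fcgr2b made 16.6% ± 2.94 and 22.1% ± 5.89 in MRL/+ and 19.7% ± 2.77 and 16.7% ± 3.18 in MRL/lpr. The control shares of Fcgr4 rest on 9 reads at 12 weeks and 4 reads at 16 weeks, and the shares were not tested.

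Ratios to the inhibitory receptor within each library show how the balance of activating and inhibitory transcripts stood. The per-length ratio of Fcgr1 to Fcgr2b had medians of 0.484 and 0.508 in MRL/+ and 0.501 and 0.732 in MRL/lpr at 12 and 16 weeks, with overlapping libraries. Fcgr3 to Fcgr2b had medians of 3.61 and 3.18 in MRL/+ and 2.48 and 2.82 in MRL/lpr, and Fcer1g to Fcgr2b of 7.34 and 4.82 against 5.82 and 5.9, both with overlap. Fcgr4 to Fcgr2b ran from 0.355 to 0.709 in MRL/+ and from 0.63 to 1.42 in MRL/lpr at 12 weeks, which overlapped, and from 0 to 0.288 against 0.681 to 2.66 at 16 weeks, which did not. Fcgr4 was the activating receptor whose ratio to Fcgr2b did not overlap between the strains at 16 weeks. The controls of that age held only 0, 2 and 2 Fcgr4 reads, so their ratios are near the floor and uncertain. These ratios were not tested.

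**Figure D3:**
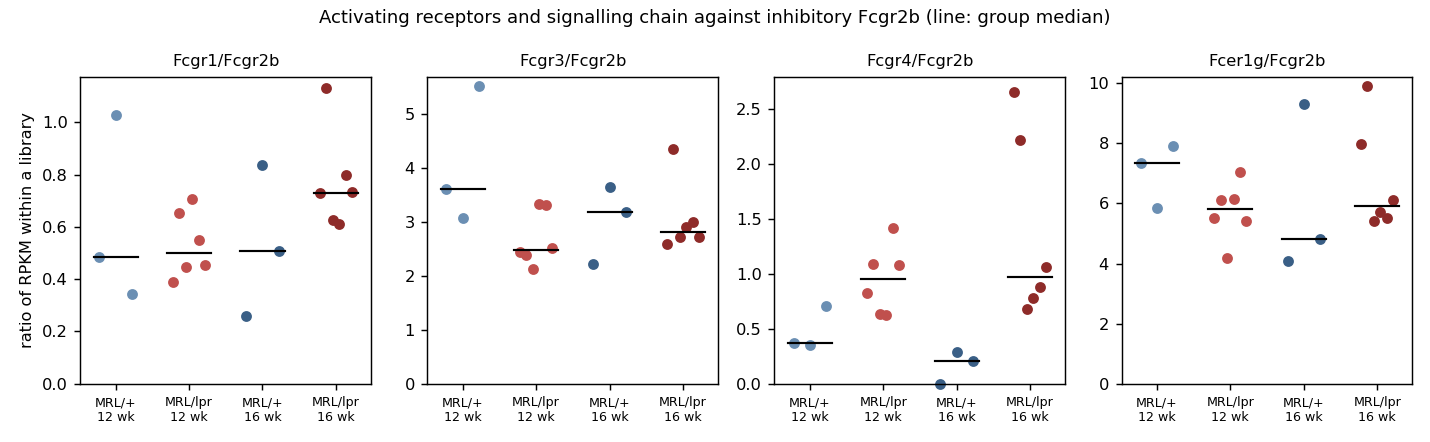
Ratio of RPKM within each library of Fcgr1, Fcgr3, Fcgr4 and Fcer1g to the inhibitory Fcgr2b, by strain and age; horizontal lines are group medians. Libraries of both strains overlap for Fcgr1, Fcgr3 and Fcer1g. For Fcgr4 the 16-week MRL/lpr libraries (0.681 to 2.66) lie above the 16-week controls (0 to 0.288), which rest on 0, 2 and 2 Fcgr4 reads.

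With age, none of the 7 tested members was called in either strain. In MRL/lpr, 0.0361% of all tested genes were called between 12 and 16 weeks. Fcgr1 had the smallest p of the 7 there, with a log2 fold change of 0.85 (SE 0.39, 95% interval 0.03 to 1.67, unadjusted p = 0.0433, adjusted p = 0.71) and means of 4.87 ± 2.65 and 8.78 ± 4.44 CPM (SD, n = 6 each), and it alone had an unadjusted p under 0.05. Fcgrt had a difference of -0.27 (adjusted p = 0.762), and the other 5 of the 7 had differences of 0.22 to 0.95. In MRL/+, 0% of all tested genes were called (2173 at an unadjusted p under 0.05, 12 by DESeq2 and 1724 by limma's voom with sample weights). Fcgr2b was the 1 member of the 7 whose control libraries did not overlap between the ages, as was so for 29.7% of all tested genes, at 2.14 ± 0.181 and 3.96 ± 1.14 CPM (SD, n = 3 each), with a log2 difference of 0.88 (SE 0.68, adjusted p = 0.533). The strain by age interaction called 0% of genes (2286 at an unadjusted p under 0.05, and 0 by DESeq2 and voom), and the members' interaction values lay between -0.67 for Fcgr2b and 1.8 for Fcgr4.

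Within MRL/lpr the IgG receptor genes shared part of their order of libraries. Replicates 1, 6 and 2 were the 3 highest at 12 weeks for Fcgr1, Fcgr3, Fcgr4, Fcer1g and Fcgr2b, and at 16 weeks replicate 1 was the highest and replicates 5 and 6 the lowest for the same 5 genes. Fcgrt differed less between libraries, 1.76 and 1.44 times from lowest to highest, against 3.83 to 12.8 times for the 5. Replicates 1 and 6 were its highest at 12 weeks too (102 and 81.2 CPM), while at 16 weeks its highest was replicate 4 (75.7 CPM). Over all 18 libraries the log2 CPM of these 5 genes correlated with each other at Pearson's r of 0.92 to 0.99, Trim21 with them at 0.78 to 0.81 and Fcgrt with them at 0.11 to 0.21. The libraries share their 4 groups, so these values describe the groups as much as the libraries.

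The genes whose log2 CPM over the 18 libraries was most like each member, among 12195 compared (12196 for Fcgr4), are given with Pearson's r as a description. For Fcgr1 they included H2-D1 (r = 0.979), a class I heavy chain, and Ncf4 (0.977), a subunit of the phagocyte oxidase. For Fcgr2b they included Clec2d (0.985) and Msr1 (0.981), a macrophage scavenger receptor, for Fcgr3 they were Fcer1g (0.99), Sp110 (0.988) and Pld4 (0.987), and for Fcer1g they were Pld4 (0.99), Fcgr3 (0.99) and Psmb10 (0.988), an immunoproteasome subunit. Those of Fcgr4 included Ifi204 (0.985), an interferon-induced gene, and H2-Q4 (0.977). Trim21 was most like Samd9l (0.96), Nampt (0.942) and Tgtp1 (0.928). Fcgrt stood apart with Crtap (0.859), Aph1a (0.859), a subunit of gamma-secretase, and Orai1 (0.85). With group means removed, the r of these pairs was 0.856 to 0.97. The pairs were picked for their r in the same libraries, so these values are not separate evidence of a link.

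Fcgr2b, Fcgr4, Fcgr3 and Fcer1g lie within 276 kb of chromosome 1. Of all tested genes, 5.01% were called higher at 12 weeks and 8.49% at 16 weeks. Of 23 tested neighbours inside that stretch or within 200 kb of it, 2 rose at 12 weeks and 3 at 16 weeks. None fell, and the median log2 fold changes of the neighbours were 0.1 and -0.01. The calls, named after their values were seen, were Fcrla, an Fc receptor-like gene of B cells, and Arhgap30 (3.79 at 12 weeks, adjusted p = 0.00753, and 4.15 at 16 weeks, adjusted p = 0.00343) at both ages, and Nectin4 at 16 weeks (2.76, adjusted p = 0.00855). Exon overlap of the members with other genes was small: the exons of Fcgr2b shared 155 bases with Gm38204, which had 0 reads, and no other member shared exon bases with a gene on the other strand or its own.

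Transcripts of antibody chains were present in MRL/lpr. The list covers heavy chains of all classes, the light chains and Jchain, not IgG alone. The genes named below are light chains, which do not tell the classes apart. Of 13 genes of antibody chains, 11 rose at 12 weeks and 12 at 16 weeks, and none fell (median log2 fold change 8.19 and 8.72). Over all tested genes, 5.01% were called higher at 12 weeks and 8.49% at 16 weeks. Igkc, the kappa light chain, was at 1807 CPM in MRL/lpr against 5.96 CPM in MRL/+ at 12 weeks and at 4482 against 6.83 CPM at 16 weeks (adjusted p = 0.0016 and 0.000834). Iglc1 and Iglc2, the lambda chains, rose too (adjusted p = 0.00205 and 0.000124 at 12 weeks), though near-identical copies may share their reads. Summed over the 13, the lowest MRL/lpr library had 452 CPM and the highest control 26.6 CPM.

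Other Fc receptors were sparse. For scale, 5.01% of all tested genes were called higher at 12 weeks and 8.49% at 16 weeks. Of 11 listed genes 5 passed the filter, and Fcrla and Fcrl1, both of B cells, rose at both ages (Fcrla 3.1 and 3.29 CPM in MRL/lpr at 12 and 16 weeks with 1 read in each control group, adjusted p = 0.0131 and 0.0108). Fcrl1 was at 3.09 and 3.21 CPM with 3 and 0 control reads (adjusted p = 0.024 and 0.0086). Fcmr, the IgM receptor, at 2.18 against 1.19 CPM at 12 weeks, did not pass (adjusted p = 0.316, and 0.128 at 16 weeks), nor did Fcrl5 (0.154 and 0.0712). The IgE receptor genes Fcer1a and Ms4a2 had 0 reads in every MRL/+ library. Of 11 listed partners of Fcgrt, Pigr and Trim21, only B2m and Jchain rose, at both ages, and none fell, while Rab25 and Ap1m2, of epithelial membrane traffic, stayed at or below 1.11 CPM in group means.

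Genes listed around the Fcer1g chain or downstream of the activating receptors were among those that rose. The share of all tested genes called higher was 5.01% at 12 weeks and 8.49% at 16 weeks. The first list holds signalling chains and receptors, inhibitory ones included, and which of them use Fcer1g was not tested. In it, 12 of 13 tested rose at each age. Among them were Tyrobp, the sister signalling chain (54 against 6.62 CPM at 12 weeks, log2 fold change 3.03, adjusted p = 0.00318), and Hcst (4.1, 0.00395). The inhibitory Pirb (5.69, 0.00459) and Clec7a, the beta-glucan receptor (4.24, 0.00665), rose too. Of 24 downstream kinases and adaptors, 16 rose at 12 weeks and 19 at 16 weeks, with the smallest p at 12 weeks in Lat, Rac2, Ptprc and Lat2 (log2 fold changes 4.56, 4.69, 4.48 and 2.37). Lat and Ptprc are also genes of T cells or of all leukocytes. Of 13 genes of the phagocyte oxidase and phagocytosis, 9 rose at 12 weeks and 12 at 16 weeks, among those with the smallest p at 12 weeks Coro1a (log2 fold change 3.54), Ncf4 (4.38), Ncf1 (3.37) and Itgb2 (4.19). None of these lists had a gene that fell.

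The phosphatases and Dok docking adaptors listed downstream of Fcgr2b were less uniform in their values. Of these 7 genes, the same 3 rose at both ages, beside 5.01% and 8.49% of all tested genes at 12 and 16 weeks. Inpp5d encodes SHIP1, the phosphatase that Fcgr2b recruits (12.3 against 2.12 CPM at 12 weeks, log2 fold change 2.54, adjusted p = 0.0188, and 2.98, 0.00582 at 16 weeks). The others were Dok2, an adaptor (3.12, 0.0131 at 12 weeks), and Ptpn6, which encodes SHP-1 (1.78, 0.0414 at 12 weeks). Ptpn11, the broadly expressed SHP-2 gene, was at 189 against 244 CPM at 12 weeks (-0.37, adjusted p = 0.134). The medians of the 7 were 1.08 and 1.65, against 2.67 and 3.27 for the kinases and adaptors, and this difference was not tested.

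**Figure D4:**
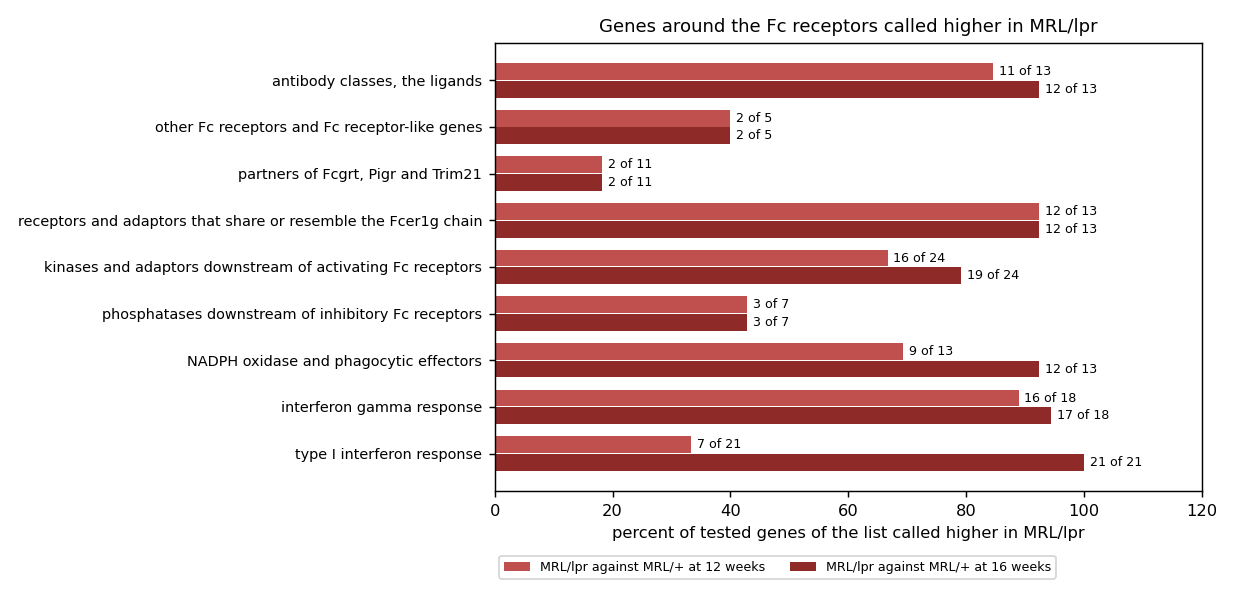
Percent of the tested genes of 9 lists called higher in MRL/lpr than in MRL/+ at 12 weeks (lighter bars) and 16 weeks (darker bars), with the counts beside each bar. The lists of antibody chains and of receptors and adaptors around the Fcer1g chain are nearly complete at both ages. Of 21 type I interferon genes, 21 are called at 16 weeks against 7 at 12 weeks. Over all tested genes, 5.01% are called higher at 12 weeks and 8.49% at 16 weeks.

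Interferons are known inducers of Fcgr1, Fcgr4 and Trim21. The counts of response genes stand beside 5.01% of all tested genes called higher at 12 weeks and 8.49% at 16 weeks. Of 18 interferon gamma response genes, 16 rose at 12 weeks and 17 at 16 weeks, among those with the smallest p at 12 weeks Cxcl9 (121 against 0.372 CPM at 12 weeks, adjusted p = 0.000624), Iigp1 (207 against 1.85 CPM, 0.0016), Gbp4 and Gbp2. Of 21 type I interferon response genes, 7 rose at 12 weeks, among them Zbp1, Rtp4, Irf9 and Xaf1 (log2 fold changes 6.61, 3.5, 1.04 and 2.28), and 21 rose at 16 weeks. None of the 21 was called in the test of the age interaction. The type I sum was 307 to 747 CPM in MRL/lpr at 12 weeks, 275 to 3045 CPM at 16 weeks and 160 to 227 CPM in the controls. The interferon gamma sum was 521 to 2180, 309 to 3328 and 76.1 to 99 CPM in the same groups. No gene of any of these 9 lists was called with age in either strain, and their part in the receptor levels was not tested. 

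The counts of these lists moved with single libraries. So did calls over the whole table, from 259 to 1463 genes at 12 weeks against 1055 with all libraries. At 16 weeks they ran from 665 to 2596 against 1849. At 12 weeks, leaving out MRL/+ 12 weeks replicate 1, 2 or 3 moved the counts of 8, 6 and 8 of the 9 lists by over 1.5 times, all downward. Without replicate 1, 3 of the 13 receptors and adaptors around the Fcer1g chain were called higher, and 6 of the 24 kinases and adaptors. The oxidase and phagocytosis list had 2 of 13, the interferon gamma list 8 of 18 and the phosphatase and Dok list 0 of 7. The antibody list stood at 10 of 13 in that fit. The type I interferon count at 12 weeks was 7 with all libraries but 19 without MRL/lpr 16 weeks replicate 1 and 12 without MRL/lpr 16 weeks replicate 6, so the counts of 7 and 21 do not show a difference between the ages. It was 4 without MRL/lpr 12 weeks replicate 1, 2 or 3 or MRL/+ 16 weeks replicate 2 or 3, and 2 without any one of the 12-week controls.

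At 16 weeks, leaving out MRL/+ 16 weeks replicate 1, 2 or 3 moved 3, 2 and 5 lists by over 1.5 times. Type I interferon then stood at 10, 9 and 8, and the phosphatase and Dok list at 1 each time. Without replicate 3 the kinases and adaptors stood at 12 and the oxidase and phagocytosis genes at 6, and without replicate 1 or 3 the other Fc receptors at 1. Without the 4 libraries left out together, 7 of the 9 lists had no gene called higher at 12 weeks and the antibody and interferon gamma lists 1 each. That fit called 19 genes of the whole table at 12 weeks and 435 at 16 weeks, against 1055 and 1849 with all libraries. At 16 weeks that fit called 10 antibody genes, 14 interferon gamma genes, 7 around the Fcer1g chain and 5 kinases and adaptors. It called 4 type I interferon genes, 3 oxidase and phagocytosis genes and 2 partners. In the phosphatase and Dok list and among the other Fc receptors it called 0.

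Markers of some of the cells that carry Fc receptors moved with these results. Among all tested genes, 5.01% were called higher at 12 weeks and 8.49% at 16 weeks. Of 14 macrophage markers 8 rose at 12 weeks and 11 at 16 weeks, and each was detected in all 4 groups. Their sum was 691 to 3779 CPM in MRL/lpr at 12 weeks and 414 to 3038 CPM at 16 weeks, against 95 to 112 and 121 to 181 CPM in MRL/+. The library with the highest sum at 12 weeks, MRL/lpr replicate 1, was also the highest in Fcgr1, Fcgr3, Fcgr4, Fcer1g, Fcgr2b and Fcgrt. The B cell list, whose cells carry Fcgr2b, rose in 8 of 8 genes at both ages (5.41 to 154 CPM in sum over MRL/lpr, at most 0.558 CPM in MRL/+, where Blk was at 0 in both ages), and so did the T cell list, whose cells mostly lack these receptors. Plasma cell markers, of cells that secrete antibody and can carry Fcgr2b, rose in 6 of 8 at each age, with a sum of 280 to 2652 CPM in MRL/lpr against 134 to 262 CPM in MRL/+. The list of follicular dendritic cells, which hold immune complexes through Fcgr2b, rose in 1 of 7 tested at each age, and its sum overlapped between the strains (2622 to 4436 against 2966 to 4498 CPM). Endothelial markers, of cells known to carry Fcgrt and in some vessels Fcgr2b, rose in 0 of 9, at 56.2 to 239 against 47.2 to 152 CPM. In such short lists, counts of 0 or 1 cannot be told from the share of all tested genes.

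Dendritic cell markers rose in 4 and 5 of 7 tested (13.6 to 65.5 CPM in sum in MRL/lpr, 6.03 to 19.1 in MRL/+), and natural killer cell markers, whose cells carry Fcgr3, in 4 and 3 of 6 tested (3.11 to 42.3 against 0.863 to 11.1 CPM). Neutrophil markers rose in 1 of 4 tested at each age, their sum was 4.21 to 26.8 CPM in MRL/lpr and 2.05 to 14.4 CPM in MRL/+, and Ly6g was at 0 in every control. Mast cell and basophil markers rose in 0 of 2 tested. Neutrophil and mast cell counts this low cannot be told from the share of all tested genes, 5.01% at 12 weeks and 8.49% at 16 weeks. The epithelial list fell in 2 of 15 genes at 16 weeks and in none at 12 weeks. Of all 16598 tested genes, 439 were called lower at 16 weeks and 223 at 12 weeks. Without the 4 libraries the macrophage list was called higher in 0 genes at 12 weeks and 8 at 16 weeks, the B cell and plasma cell lists in 0 and 2 each, the T cell list in 1 and 8, the dendritic cell list in 0 and 1 and the natural killer cell list in 0 and 2. Over the whole table that fit called 19 and 435 genes, against 1055 and 1849 with all libraries. The part of each of these cell types in the Fc receptor differences was not tested.

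**Figure D5:**
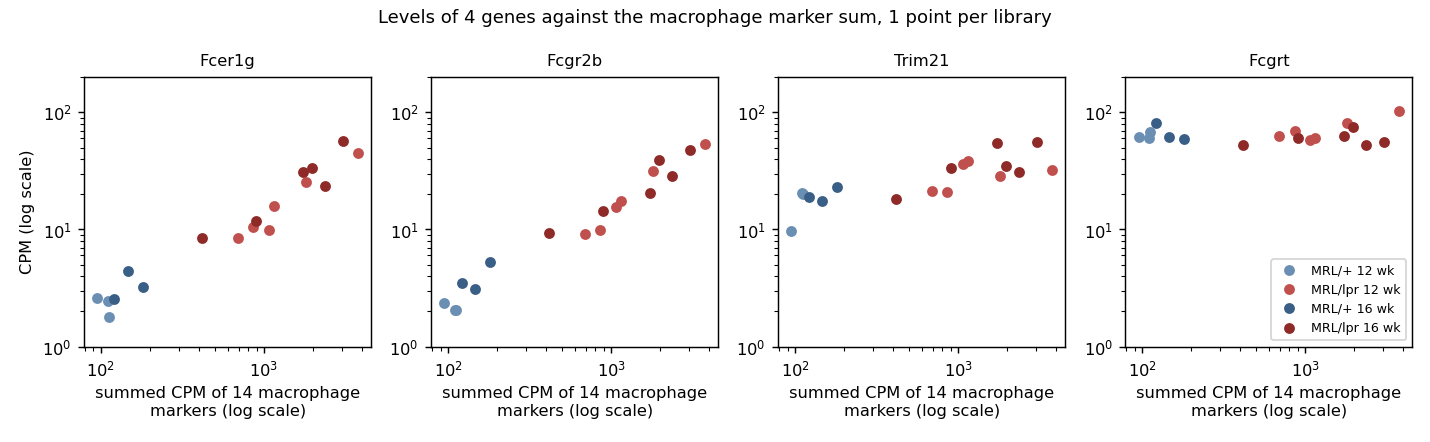
CPM of Fcer1g, Fcgr2b, Trim21 and Fcgrt against the summed CPM of 14 macrophage markers, 1 point per library, both axes logarithmic, coloured by strain and age. Controls sit at sums of 95 to 181 CPM and MRL/lpr libraries at 414 to 3779 CPM; Fcer1g and Fcgr2b are higher in libraries with a higher sum, while Fcgrt stays between 52.5 and 102 CPM.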

How the data were processed

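RNA of flash-frozen choroid plexus was sequenced after a library preparation that does not mark strand, per the labels' protocols. The authors deposited raw read counts per gene for 18 libraries (11164284 to 14602253 counts each). Reads were processed with STAR 2.5.3a, featureCounts 1.26.0 and DESeq2 1.16.1 on GRCm38, per the submitters' processing notes. The annotation release, the strand setting and the handling of multiply aligned reads could move counts of similar or overlapping genes, and for them no setting is given in the sources used here.

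From these counts, genes were filtered with filterByExpr (16598 left), scaled with TMM and fitted with edgeR 4.0.16 (robust quasi-likelihood, 1 mean per strain and age, all 18 libraries, R 4.3.3). P-values were adjusted by Benjamini-Hochberg over all tested genes, and calls were made under 0.05. RPKM used the deposited gene length. On simulated counts of the 12-week comparison (16598 genes), 40.8% of genes changed by 1 and 94.9% of those changed by 3 on the log2 scale were recovered. The simulated controls had each gene's mean over all 18 libraries and the same dispersion as the other groups. The real controls of the IgG receptor genes lay below that mean, so these shares may be too high for them. No pair of libraries within a group looked like the same library (lowest chi-square per gene 6.1).

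Alternatives were DESeq2 1.42.0, RLE size factors, no filter, scaling to epithelial markers, limma 3.58.1 voom with sample weights, only the groups compared, a replicate block, each library left out, and, added after seeing the data, 4 libraries left out together and these alternatives applied to the list counts. The members and gene lists were chosen with earlier results of these data known. All 8 members are named, from each list up to 4 genes with the smallest p at 12 weeks, and for each tested member the 3 genes with the highest correlation over libraries, of which some are not reported here.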

Additional observations from a re-analysis of the deposited data

Results flagged for a closer look

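Fcgr4 in MRL/lpr at 16 weeks had 1 library far from the other 5. Replicate 1 was at 27.4 CPM and the nearest library at 9.93 CPM, a gap of 0.691 of the group's whole range, above Dixon's 95% critical value for 6 samples. Under normal scatter, chance flags about 1 in 20 pairs of gene and group. All 8 members were looked at in MRL/lpr at both ages, 16 pairs. The pairs of an age share the same libraries, so they are not separate looks. The same library had the highest type I interferon sum of the 18 (3045 CPM, where the next had 1059 CPM) and the highest antibody sum (16392 CPM). It also ranked second in cerebellum markers (252 CPM of total counts, median 37.4) and skeletal muscle markers (67.4, median 11.4). The fit without 4 libraries kept this library. Without it, the log2 fold change of Fcgr4 at 16 weeks was 5.37 (edgeR, adjusted p = 0.00315).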

How the results depend on the processing

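The calls at 12 weeks were the least stable: 5 members were called, and leaving out single libraries gave 1 to 5. Without the 4 libraries that were each the highest in 1 neighbouring tissue's markers (MRL/lpr 12 weeks replicate 4, next in pineal markers, was kept) it was 0 at 12 weeks. At 16 weeks single libraries left out gave 3 to 6, and the 7 other tools and settings 5 or 6, Trim21 being the sixth; its log2 fold change was 0.96 with DESeq2, 1.43 with epithelial scaling, 1.12 with voom and 1.2 with the replicate block. The cause of these changes was not tested. Fits that leave control libraries out also hold fewer of them. Over all 26 alternatives, 849 member results kept their direction and side of the threshold, 27 reversed, 19 lost and 6 gained a call.

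The reversals were small values near 0. Fcgrt at 16 weeks turned to 0.32 with epithelial scaling, and with age in MRL/+ to -0.01 with voom. With single libraries left out, Fcgrt with age in MRL/+ ran from -0.07 to 0.17 and Trim21 from -0.01 to 0.42, and Trim21 turned to -0.15 without the 4 libraries. The interaction of Fcer1g was 0.18 with epithelial scaling, 0.27 with voom and 0.31 without the 4 libraries. With single libraries left out it ran from -0.36 to 0.4 for Fcer1g, -0.18 to 0.46 for Fcgr3, -0.06 to 0.4 for Trim21 and -0.17 to 0.6 for Fcgr1.

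Over the whole table, voom called 3515 genes at 12 weeks (1595 higher, 1920 lower) and 4864 at 16 weeks (2414 and 2450), DESeq2 1661 at 12 weeks, and epithelial scaling 4960 at 16 weeks (4919 higher, 41 lower), which moved the median of all genes to 0.29 and 0.508. Single libraries left out gave 259 to 1463 and 665 to 2596 genes, and the fit without the 4 libraries 19 and 435. Scaled by total counts, Fcgr3 in MRL/+ at 16 weeks was at 3.03 CPM. With the replicate number as a block, 5 members were called at 12 weeks and 6 at 16 weeks (Trim21 adjusted p = 0.0356). The labels do not say that a number pairs libraries across groups, so the numbers were not taken as pairs in the main fit. Deviations from group means had a median r of 0.0646 in 21 same-numbered pairs (from -0.663 to 0.51). In 96 differently numbered pairs it was -0.0243 (from -0.73 to 0.868). So few pairs cannot exclude a pairing. Fits of only the groups compared give no interaction value. Depth limits Pigr and the Fcgr4 controls.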
